A study of Mus musculus with 4 samples.

Results

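Potassium channel genes were taken as the protein-coding genes whose symbol begins with Kcn, followed by letters and a digit. There were 93 of them among the 55812 features of the count table, of which 21897 are annotated as protein-coding. The symbols came from the GRCm38 annotation. The set holds the pore-forming subunits, which make the channel itself, and auxiliary subunits, which bind to it. RNA sequencing had been carried out on primary mouse Leydig cells, the androgen-producing cells between the seminiferous tubules, from mice labelled as 6 months old. One group of 2 samples had received Negative siRNA, a control small interfering RNA, and the other group of 2 had received Trps1 siRNA, directed against the GATA-type zinc finger repressor Trps1. They are called controls and knockdown samples, numbered as in the labels. The labels give no strain, transfection time or dose, and no difference between the groups other than the siRNA. The labels do not say whether samples came from separate animals or cultures, so a p-value here covers only the spread among these 4 libraries, which may be technical.

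Potassium channels let potassium leave the cell along its gradient and so hold or restore the negative resting potential. Voltage-gated channels open on depolarisation, calcium-activated channels open when cytosolic calcium rises, and inward rectifiers pass current best near rest. Two-pore-domain (K2P) channels are open over a wide range of voltages and carry the background leak. They are named by subfamily: TWIK, TREK, TASK, TALK, THIK and TRESK. In steroid-producing cells the resting potential governs calcium entry, which acts with cyclic AMP in the control of hormone output.

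Libraries held 17844125 to 25852898 counted reads. The targeted gene had 38.1 and 42.2 CPM (a gene's reads per library of standard size, after TMM scaling) in the Negative siRNA samples and 23.5 and 30.1 CPM in the Trps1 siRNA samples (log2 fold change -0.58 ± 0.10, standard error; edgeR adjusted p = 0.000351). All 8 Leydig markers checked were present, with Cyp11a1 the most abundant, and 6 of them were higher with Trps1 siRNA. Markers of other cell types were detected too. The summed level of 12 macrophage markers was 3080 and 2990 CPM in the controls against 2590 and 2040 CPM in the knockdown samples, and 8 of the 12 fell past the test. Of 6 peritubular and smooth muscle markers, Myl9 and Acta2 fell, the defining contractile genes Tagln and Cnn1 were near 0, and the summed level was 94.1 and 95.1 CPM against 59.0 and 62.8 CPM. Endothelial, Sertoli and germ cell markers had 0 calls among 6, 3 and 1 tested with edgeR, and 0 at an unadjusted p under 0.05. Of the neuronal markers, Rbfox3 was higher and Snap25 had 0 reads. In such bulk samples, fewer cells of a type and less RNA per cell cannot be told apart.

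Most potassium channel genes were not expressed in these cells. With expressed meaning a mean of at least 1 CPM over the 4 samples, 27 of the 93 genes were expressed and 66 were not. Of those 66, 41 had some reads and 25 had none in any library, where 3 reads would correspond to 0.117 to 0.168 CPM, a limit that covers counting error only. Only 8 genes reached 10 CPM, 5 lay from 5 to 10 CPM and 14 from 1 to 5 CPM. The summed level of all 93 was 346 to 369 CPM per sample. The median of the genes tested was 3.29 CPM, against 20.6 CPM over all features tested. Just above the threshold were Kcnf1 (mean 1.20 CPM) and Kcns3 (1.18 CPM), both subunits that modify other voltage-gated channels. Just below it were Kcne3 (0.819 CPM), an auxiliary subunit, and Kcnq1 (0.681 CPM), a voltage-gated pore subunit. All 4 lay above 1 CPM in some samples and below it in others. Kcnf1 had 2.24 and 0.742 CPM in the controls against 0.952 and 0.874 CPM in the knockdown samples.

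By level per kilobase of exon (RPKM), a K2P gene stood first. Kcnk1 (TWIK-1) had a mean of 40.6 RPKM. Next came Kcne4, an auxiliary subunit that damps voltage-gated channels, with 12.4 RPKM, and Kcnk5 (TASK-2), with 8.90 RPKM. Then followed Kcnab2, a cytoplasmic beta subunit, with 7.13 RPKM, Kcnh2, the ERG channel of cardiac repolarisation, with 5.66 RPKM, and Kcnj8, the Kir6.1 pore of ATP-sensitive channels, with 5.25 RPKM. The K2P class had 5 expressed genes of 14, auxiliary subunits 5 of 16, voltage-gated pores 10 of 40, calcium- or sodium-activated pores 4 of 8, and inward rectifiers 3 of 15. In summed RPKM the 14 K2P genes had 53.8 to 60.0 per sample, auxiliary subunits 22.8 to 23.7, voltage-gated pores 13.6 to 14.3, inward rectifiers 6.23 to 6.97 and calcium- or sodium-activated pores 5.01 to 5.39.

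**Figure D1:**
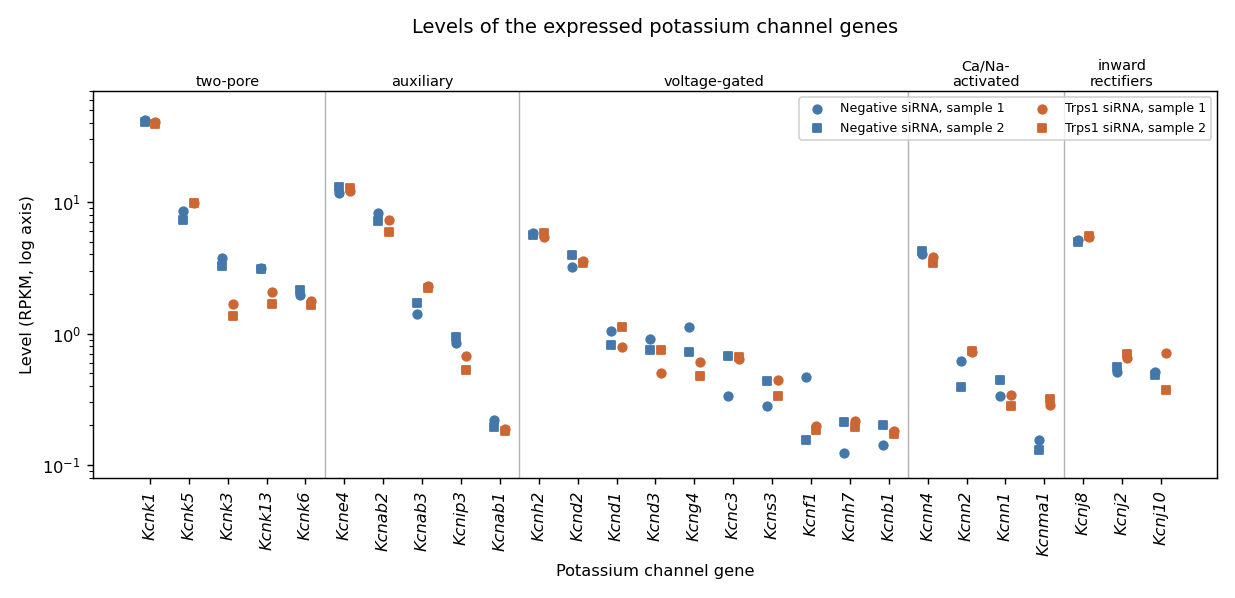
Level of each of the 27 expressed potassium channel genes (RPKM, log axis) in the 4 samples, by class; blue points are Negative siRNA and orange points Trps1 siRNA, circles sample 1 and squares sample 2. Kcnk1 lies highest at about 40.6 RPKM, and the colours stand well apart for Kcnk3 and Kcnma1.

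Trps1 siRNA was compared with Negative siRNA to see which of these channels changed when Trps1 was lowered. Of the 93 genes, 35 had enough reads to be tested, 27 of them expressed and 8 below 1 CPM, and the other 58 were not tested. Of the 35, 2 rose, Kcnma1 and Kcnk5. Another 3 fell, Kcnk3, Kcnk13 and Kcnk15, and 30 did not pass the test (edgeR quasi-likelihood test, Benjamini-Hochberg adjusted p under 0.05). The 5 genes called were 14.3% of those tested, against 11.2% of all 14701 features tested, a share near the background. Over all features 5.24% were called higher and 6.0% lower. The groups did not overlap in 15 of the 35 genes (42.9%), against 52.2% of all features. The median log2 fold change was -0.041 for the 35 genes and 0.002 for all features, and 19 of the 35 had a negative value. The 30 genes that did not pass fall into 3 levels. At 5 CPM or more, 10 had log2 fold changes of -0.38 to 0.53 with standard errors of 0.06 to 0.19. From 1 to 5 CPM, 13 had -0.77 to 0.56 with standard errors of 0.21 to 0.47. Below 1 CPM, 7 had -0.25 to 0.45 with standard errors of 0.49 to 0.67. The calls among the 7 tested K2P genes were Kcnk3, Kcnk13, Kcnk15 and Kcnk5. Kcnk15 entered the test only through the controls, the group where it was high, so a count that includes it supports nothing about the class. In the authors' deposited table of 780 genes, 3 potassium channel genes are listed: Kcnk3 with a log2 fold change of -1.20, Kcnk13 with -0.74 and Kcnma1 with 1.08, with adjusted p-values of 5.74e-08, 0.0131 and 0.00946.

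**Figure D2:**
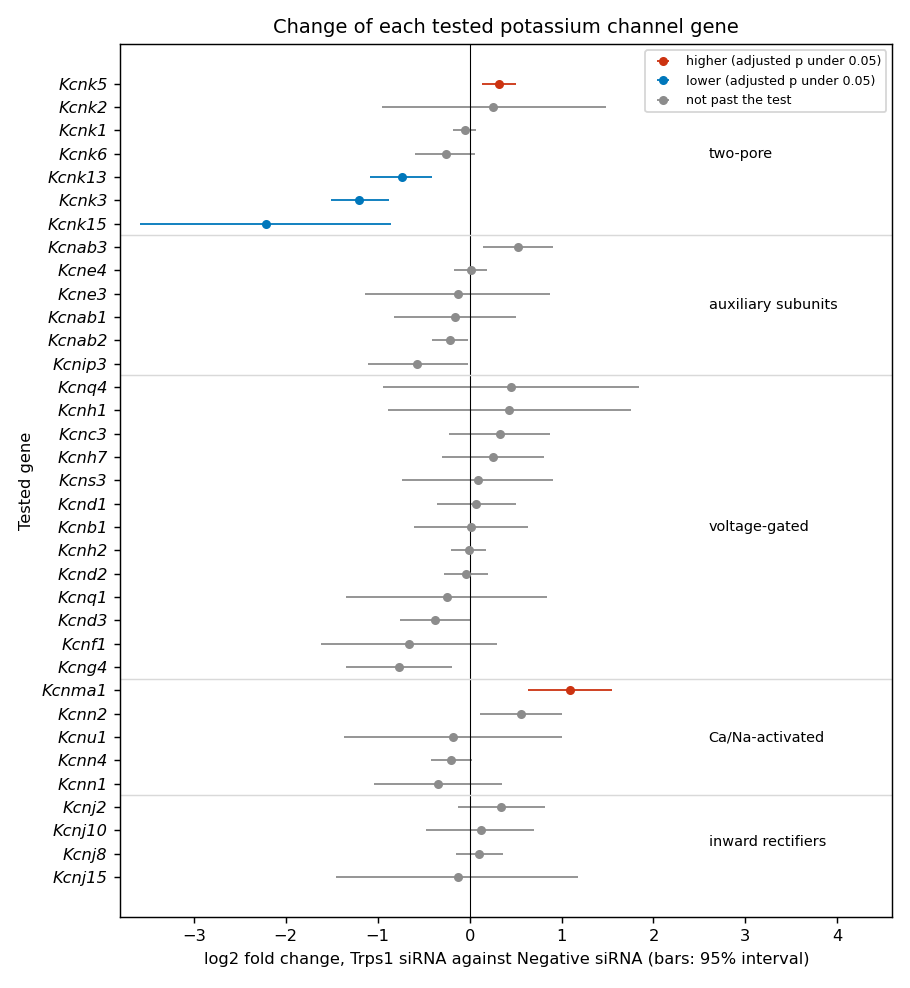
Log2 fold change of the 35 tested potassium channel genes, Trps1 siRNA against Negative siRNA, with 95% intervals; blue genes fell, red genes rose and grey genes did not pass the test. In the K2P class at the top, the coloured genes run from Kcnk15 at -2.22 to Kcnk5 at 0.32.

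Kcnk3 encodes TASK-1, an acid-sensitive leak channel that sets the resting potential in adrenal and other excitable cells. The gene (ENSMUSG00000049265) lies on chromosome 5, 30588170 to 30625271, plus strand, in GRCm38. It had 14.8 and 13.0 CPM in the controls against 6.72 and 5.43 CPM in the knockdown samples, from 298, 332, 120 and 118 reads. Both Trps1 siRNA samples lay below both controls, and the gap between the groups was wider than the spread within either. Kcnk3 fell to 43.6% of the control level, with means of 13.9 ± 1.31 CPM in controls and 6.08 ± 0.914 CPM after knockdown (SD, n = 2 each). On the log2 scale this was a fold change of -1.20 ± 0.15 (standard error, edgeR adjusted p = 4.82e-06). Gm9899, a non-coding gene on the opposite strand, shares 229 of Kcnk3's 3976 exon bases and had 30 reads in all, against 868 for Kcnk3. No source used here gives whether counting used strand. The macrophage and smooth muscle marker sums given above moved in the same direction. Of the 4 tested smooth muscle markers, Myl9 and Acta2 fell and 2 did not pass the test. The part of these cell types in the fall of Kcnk3 was not tested.

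The TASK subfamily has 2 other genes here. Kcnk9 (TASK-3), which pairs with TASK-1 in mixed channels, had 0 reads in all 4 libraries. Kcnk15 (TASK-5), which gives no current on its own in expression systems, had 0.597 and 1.05 CPM in the controls against 0.112 and 0.230 CPM in the knockdown samples. These levels rest on 12, 27, 2 and 5 reads, and the mean of 0.498 CPM is below the threshold for expressed genes. Both controls reached the minimum-count filter and neither knockdown sample did, so a gene that entered the test in this way had to differ. Its fitted log2 fold change was -2.22 ± 0.67 (edgeR adjusted p = 0.0294). Summed over each group, the 7 reads with Trps1 siRNA against 39 with Negative siRNA gave a ratio of 0.207, with an exact 95% interval of 0.0782 to 0.469 that covers counting error only. The call was lost without control 2 (adjusted p = 0.369) and without knockdown sample 1 or 2 (0.207 and 0.148), and DESeq2 gave it no adjusted p.

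Kcnk13 encodes THIK-1, a leak channel known for its role in microglia. The gene (chromosome 12, 99964499 to 100062682, plus strand) had 9.80 and 9.69 CPM in the controls against 6.44 and 5.25 CPM in the knockdown samples. The groups did not overlap, and Kcnk13 fell to 59.7% of the control level (log2 fold change -0.74 ± 0.16, edgeR adjusted p = 0.00248). The macrophage marker sum fell in the same samples, to its lowest value of 2040 CPM in knockdown sample 2, where Kcnk13 was also lowest. The part of macrophage RNA in the fall of Kcnk13 was not tested, and without that sample the call was lost (log2 fold change -0.60, adjusted p = 0.0753). Kcnk12, the other THIK gene, had a single read.

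The K2P gene that rose was Kcnk5, the alkaline-activated channel TASK-2 of the TALK subfamily. Kcnk5 (chromosome 14, 20140057 to 20181809, minus strand) had 29.2 and 24.8 CPM in the controls and 33.6 CPM in each knockdown sample, so the groups did not overlap. It rose 1.25-fold (log2 fold change 0.32 ± 0.09, edgeR adjusted p = 0.0245). The call did not hold with DESeq2 (adjusted p = 0.106), nor in edgeR without control 2 (0.364), knockdown sample 1 (0.0642) or knockdown sample 2 (0.121).

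Promoter bases of called genes are shown because Trps1 binds the letters GATA through its zinc finger. Those of Kcnk5, Kcnk13 and Kcnk15 are printed. Kcnma1, whose window held 1 match, is not printed because its window lies inside the annotated gene, and Kcnk3 had no entry in the table used. They are the bases up to 250 before the RefSeq start (GRCm38.p6), printed as far as the first annotated exon base, with each GATA, or TATC for the other strand, in capitals. Kcnk5 is shown for chr14:20181810-20182032 (minus strand), Kcnk13 for chr12:99964249-99964498 (plus strand) and Kcnk15 for chr2:163853500-163853650 (plus strand).
Kcnk5: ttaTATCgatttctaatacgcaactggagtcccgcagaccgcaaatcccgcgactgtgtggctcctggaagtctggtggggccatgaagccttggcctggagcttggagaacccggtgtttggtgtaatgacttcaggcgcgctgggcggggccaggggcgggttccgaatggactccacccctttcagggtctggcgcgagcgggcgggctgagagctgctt
Kcnk13: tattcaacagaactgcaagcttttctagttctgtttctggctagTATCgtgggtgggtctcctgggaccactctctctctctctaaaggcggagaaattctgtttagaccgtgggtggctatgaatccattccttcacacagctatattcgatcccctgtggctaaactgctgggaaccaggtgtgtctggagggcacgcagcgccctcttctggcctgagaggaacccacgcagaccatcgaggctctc
Kcnk15: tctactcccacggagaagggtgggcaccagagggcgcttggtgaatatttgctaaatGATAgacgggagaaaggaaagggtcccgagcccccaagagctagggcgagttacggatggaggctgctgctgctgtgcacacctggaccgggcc
Each of the 3 windows held 1 match. Of 32851 promoters in the RefSeq table, 53.6% held GATA on either strand in the 250 bases, as did 47.3% of the 93 promoters of the 68 potassium channel genes matched by symbol. A longer form (GATA with A or T before it and A or G after it, either strand, each a subset of the GATA matches) was found in Kcnk15 alone among these 3, against 26.5% of all promoters and 17.2% of those of potassium channel genes. A match is a string of letters, and binding was not measured.

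Of the TWIK genes, Kcnk1 and Kcnk6 did not pass the test, and Kcnk7 had too few reads to be tested. Kcnk1, a weakly conducting leak channel, had 94.1 and 90.8 CPM in the controls against 91.3 and 87.0 CPM in the knockdown samples, so that the groups overlapped. Its log2 fold change was -0.05, with a 95% interval of -0.18 to 0.07, the narrowest of the 35 genes tested. Kcnk6 (TWIK-2) had 8.11, 8.87, 7.39 and 6.81 CPM in the same order, with a log2 fold change of -0.26 ± 0.16 (edgeR adjusted p = 0.325). The TREK gene Kcnk2, a mechanosensitive channel, lay near 0.489 CPM, and its interval of -0.95 to 1.48 is too wide to bound a change. Kcnk4 and Kcnk7 had a few reads, and Kcnk10, Kcnk16 and Kcnk18 had none.

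**Figure D3:**
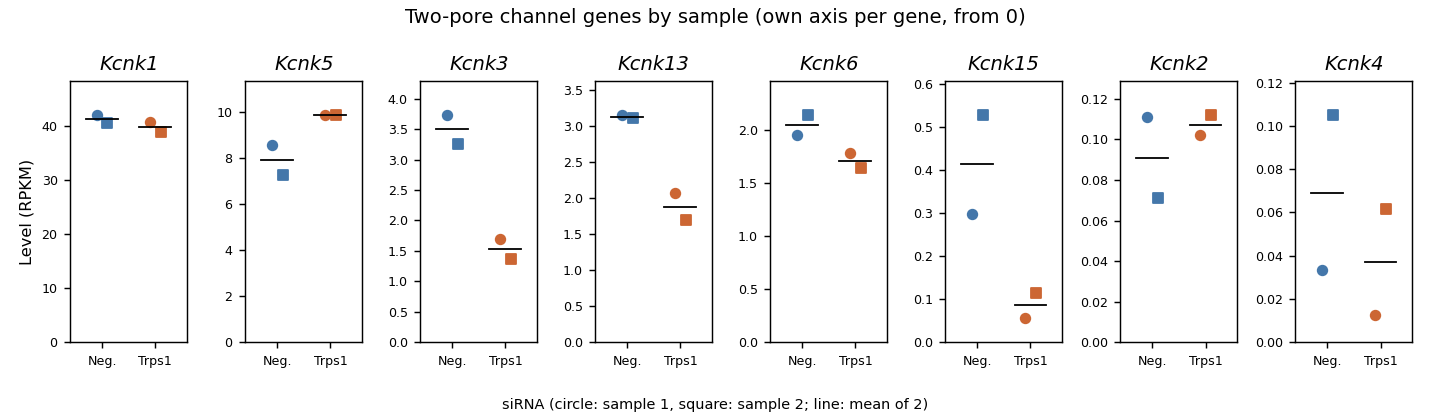
Level (RPKM) of the 8 K2P genes with the highest means in each sample, each on its own axis from 0; blue is Negative siRNA, orange Trps1 siRNA, and the line is the mean of 2 samples. Both orange points lie below both blue points for Kcnk3, Kcnk13, Kcnk6 and Kcnk15, and above them for Kcnk5.

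Kcnk3 was then set against the other 13 K2P genes on the per-length scale. It made up 6.21% and 5.71% of the summed K2P RPKM in the controls and 3.0% and 2.54% after knockdown. Its share was thus 5.96 ± 0.353% and 2.77 ± 0.323% (SD, n = 2 per group), a difference of -3.19 percentage points. With 2 samples against 2, the two-sided exact permutation test gave p = 0.333, the smallest it allows. The other 13 genes together had 56.3 and 53.8 RPKM with Negative siRNA and 54.7 and 52.4 RPKM with Trps1 siRNA, and these overlapped. Kcnk1 made up 70.1% to 72.4% of the sum in every sample. Kcnk5 went from 14.3% and 12.7% to 17.5% and 18.4%, and Kcnk13 from 5.25% and 5.45% to 3.67% and 3.13%. By mean level Kcnk3, at 2.51 RPKM, followed Kcnk1 and Kcnk5 and was level with Kcnk13, at 2.50 RPKM. With Negative siRNA Kcnk3 lay above Kcnk13 in both samples, and with Trps1 siRNA below it.

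The log2 fold change of each of the 6 other tested K2P genes was subtracted from that of Kcnk3. Standard errors were combined as if genes were independent, and intervals were not adjusted for the 6 comparisons. These intervals used the normal distribution, which makes them narrower than the t distribution used for single genes would. The difference from Kcnk1 was -1.15 (95% interval -1.47 to -0.82), from Kcnk5 -1.52 (-1.87 to -1.17) and from Kcnk6 -0.93 (-1.36 to -0.51), so the fold change of Kcnk3 lay below those of these 3 genes. Against Kcnk13 the difference was -0.45. Its interval of -0.89 to -0.02 ends so close to 0 that a difference between these genes was not settled. Against Kcnk2 it was -1.46 (-2.65 to -0.27). Against Kcnk15 it was 1.02 (-0.32 to 2.36). Kcnk15 entered the test only through the controls, the group where it was high, so this value cannot compare the falls of these TASK genes.

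Among calcium-activated channels Kcnma1 rose. It encodes the pore of the large-conductance BK channel, which opens with calcium and voltage together. Kcnma1 (chromosome 14, 23289431 to 24014491, minus strand) had 2.64 and 2.23 CPM in the controls against 4.87 and 5.38 CPM in the knockdown samples, from 53, 57, 87 and 117 reads. The groups lay well apart, and the rise was 2.12-fold (log2 fold change 1.09 ± 0.22, edgeR adjusted p = 0.00147). Its exons span 16976 bases, and its level per length was 0.223 RPKM. An opposite-strand gene that shares 1016 of these bases had 0 reads. The smooth muscle and macrophage marker sums were lower in the samples where Kcnma1 was higher. The sum of Leydig markers was higher there, with 4050 and 4340 CPM in the controls against 6040 and 6480 CPM in the knockdown samples. So was that of neuron and glia markers, with 22.2 and 20.1 CPM against 35.6 and 32.8 CPM. The part of any cell type in the rise of Kcnma1 was not tested. The BK beta subunits were scarcely detected: Kcnmb1 had 7 reads in all, Kcnmb4 had 3, and Kcnmb2 and Kcnmb3 had none.

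Of the other 4 tested genes of that class none passed. Kcnn2, a small-conductance calcium-activated channel, had 4.58 and 2.93 CPM in the controls against 5.38 and 5.52 CPM in the knockdown samples (log2 fold change 0.56 ± 0.22, edgeR adjusted p = 0.102). Kcnn4, the intermediate-conductance channel used by blood cells and macrophages, was the most abundant, with 20.5, 21.8, 19.5 and 17.5 CPM in the same order. The log2 fold change of Kcnn4 was -0.20 ± 0.11 (edgeR adjusted p = 0.288), so a change was not established. The macrophage marker sum was lower in the knockdown samples, and a link of Kcnn4 with it was not tested. Kcnn1 had a log2 fold change of -0.34 ± 0.34, and its groups overlapped.

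Of the 13 voltage-gated pore genes tested, edgeR and voom called 0, with 2 at an unadjusted edgeR p under 0.05. DESeq2 gave an adjusted p for 7 of them and called 0. Kcnh2 had 28.2 and 27.0 CPM in the controls against 26.3 and 28.2 CPM in the knockdown samples, and its 95% interval of -0.20 to 0.18 on the log2 scale sets the size of change it leaves possible. The A-type channel genes Kcnd2, Kcnd3 and Kcnd1 had means of 18.2, 6.99 and 4.99 CPM. Of these Kcnd3 had the lowest fold change, -0.38 ± 0.18 (edgeR adjusted p = 0.206), with 8.71, 7.23, 4.82 and 7.22 CPM by sample. Kcng4, a silent subunit that modifies Kv2 channels, had 4.28, 2.73, 2.30 and 1.79 CPM. Its log2 fold change of -0.77 ± 0.28 missed the threshold (edgeR adjusted p = 0.0779).

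Auxiliary subunits and inward rectifiers had 0 calls among 6 and 4 tested genes with edgeR and voom, with 3 and 0 at an unadjusted edgeR p under 0.05. DESeq2 gave an adjusted p for 4 and 3 of them and called 0. Kcne4 had 31.1 and 34.7 CPM in the controls against 32.2 and 34.0 CPM in the knockdown samples, a log2 fold change of 0.01 with an interval of -0.17 to 0.19. The beta subunits differed in sign: Kcnab3 had 4.03, 4.88, 6.55 and 6.40 CPM (log2 fold change 0.53 ± 0.19, edgeR adjusted p = 0.0666), and Kcnab2 had 45.7, 39.7, 40.4 and 33.3 CPM (-0.21 ± 0.09, 0.161). Kcnip3, a calcium sensor that binds A-type channels, had 2.98, 3.32, 2.41 and 1.89 CPM (-0.57 ± 0.26, 0.188). Of the inward rectifiers, Kcnj8 had 13.1, 12.7, 13.8 and 13.9 CPM (log2 fold change 0.10, interval -0.15 to 0.36), Kcnj2, the classical Kir2.1, a mean of 3.29 CPM, and Kcnj10 one of 2.81 CPM. Kcnj11, the other pore of ATP-sensitive channels, had 2 reads.

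**Figure D4:**
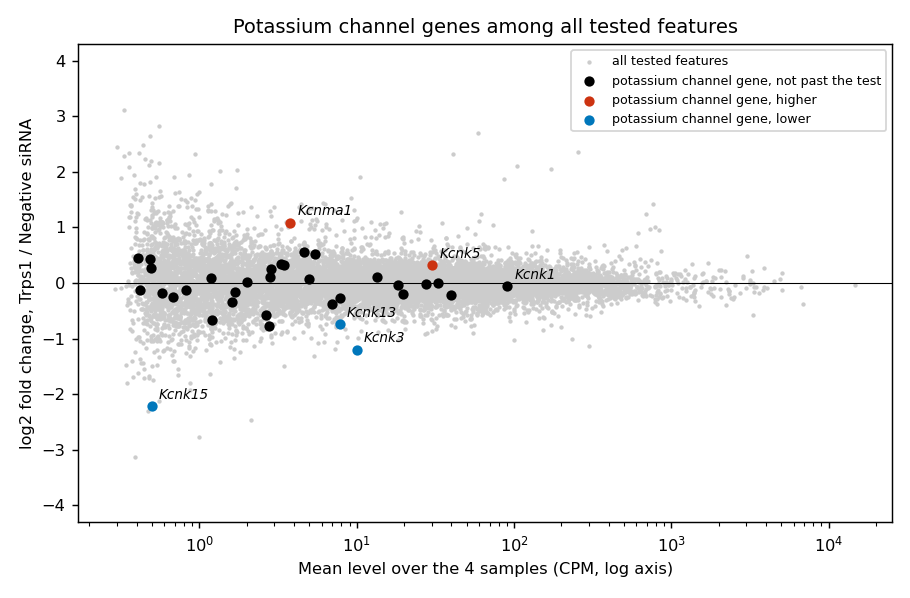
Log2 fold change (vertical axis) against mean level (CPM, log axis) for the 14701 tested features in grey and the 35 tested potassium channel genes in black, blue (fell) and red (rose). Kcnk3 lies at -1.20 and Kcnma1 at 1.09, and Kcnk1, the most abundant of the 35, lies at -0.05.

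Genes that work beside these channels were read from 7 lists of 80 genes, of which 49 were tested. There were 5 that rose, 3 that fell and 41 that did not pass the test, so 8 of 49 were called, against 11.2% of all features. Abcc9, the SUR2 subunit that joins Kcnj8 in ATP-sensitive channels, had 71.5 and 81.6 CPM in the controls against 89.7 and 107 CPM in the knockdown samples. It rose 1.28-fold (edgeR adjusted p = 0.00516, but 0.135 without knockdown sample 2), while Abcc8, the SUR1 subunit, had 7 reads in all. In the sodium-potassium pump list of 14 genes, 10 tested, Atp1b1, a beta subunit, fell to 70.5% of control and Fxyd6, a pump regulator, rose 2.10-fold (edgeR adjusted p = 1.05e-06 and 3.49e-06).

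Of 7 tested cation-chloride cotransporters, Slc12a2 (NKCC1), which loads cells with potassium and chloride, fell to 63.7% of control, and Slc12a8 rose 1.5-fold (edgeR adjusted p = 1.31e-05 and 0.0178). Slc12a4 (KCC1), the most abundant, had means of 118 and 106 CPM and did not pass. Of 10 tested voltage-gated calcium channel genes, Cacnb2, a beta subunit, and Cacna1h, the T-type pore Cav3.2, rose 1.25-fold and 1.23-fold (edgeR adjusted p = 0.00418 and 0.0133). Of 11 genes for TASK trafficking partners, Copb2, a coatomer subunit, fell to 86.6% of control (edgeR adjusted p = 0.0188), and S100a10 and Ywhae, which encode p11 and a 14-3-3 protein, had log2 fold changes of 0.02 and -0.02. None of 2 HCN and 6 sodium channel genes tested passed with edgeR or voom, with 0 and 2 at an unadjusted edgeR p under 0.05. DESeq2 gave an adjusted p for 1 and 3 of them and called 0. The most abundant HCN gene was Hcn2, with a mean of 4.93 CPM. The calls of Cacna1h and Slc12a8 were lost with DESeq2 (adjusted p = 0.0641 and 0.0625). Leaving out 1 library ended the call of Cacna1h without control 1, control 2 or knockdown sample 2 (0.0705, 0.0729 and 0.0996). It ended that of Slc12a8 without control 1 or knockdown sample 1 (0.192 and 0.173), and that of Copb2 without control 1, control 2 or knockdown sample 1 (0.111, 0.0989 and 0.0825).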

How the data were processed

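RNA sequencing of 4 samples of primary Leydig cells was analysed, 2 given Negative siRNA and 2 given Trps1 siRNA, grouped by their titles. The authors deposited raw read counts per gene, made with HISAT2 and featureCounts on GRCm38 (mm10) per the submitters' processing notes, with versions and strand settings not given in the sources used here. A second file, the authors' deposited table of 780 genes, holds mean scaled counts per group (a signal), log2 fold changes and adjusted p-values per the file headers, and was used only where named. Libraries held 20116799, 25852898, 17844125 and 21597187 counts.

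Of the 55812 features, 55401 have Ensembl identifiers, and 55141 of these matched a GENCODE M21 symbol. Counts of all features were fitted with edgeR 4.0.16 in R 4.3.3 (TMM scaling, filterByExpr with a minimum count of 10, robust glmQLFit, glmQLFTest, Benjamini-Hochberg adjustment over all features tested, called under 0.05). Two-sided 95% intervals of single genes came from the same fit. It had 2 residual degrees of freedom per gene, to which edgeR added prior degrees of freedom estimated over all tested features. Intervals of differences between genes used the normal distribution. RPKM is TMM-scaled CPM per kilobase of merged exons. The script was tested on simulated data. Replicates differed beyond sampling noise, with chi-square values of 7.08 and 4.34 per gene, so each counted as 1 sample. DESeq2 1.42.0 and limma 3.58.1 (voom) were alternatives, beside other scalings, filters, a replicate block and leaving out each sample.

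Genes were named by rule: K2P genes of at least 1 CPM, every call, the 3 highest by RPKM and 3 smallest p per class, the neighbours of the threshold, and, in the related lists, the calls and the most abundant gene. Some genes that this rule names are not reported here. K2P genes with few reads, the BK beta subunits, Kcnj11, Abcc8 and S100a10 were named after their values were seen. The genes and lists were chosen with earlier results of these data known.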

Additional observations from a re-analysis of the deposited data

How the results depend on the processing

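With 2 samples per group, each gene had 2 residual degrees of freedom of its own. The edgeR tests also drew on the variance of all tested features. Genes under 1 CPM had standard errors of 0.49 to 0.67 on the log2 scale, so changes of that size were not detectable. Kcnk3 and Kcnma1 kept their calls in all alternatives that gave a value, 12 of 12 (log2 fold change -1.35 to -1.05) and 11 of 11 (0.96 to 1.20). The count of expressed genes went from 22 (at least 2 CPM) to 30 (at least 0.5 CPM). The 2 genes called higher became 1 with a minimum of 5 CPM, 1 with DESeq2, and 1 to 3 with 1 sample left out. The 3 called lower became 2 with a minimum of 5 CPM and 2 with DESeq2. With 1 sample left out this count moved both ways, up without control 2 and down without knockdown sample 2. Over the alternatives, log2 fold changes ran from -0.89 to -0.6 for Kcnk13 and from -2.85 to -1.73 for Kcnk15. Of the related genes, the 5 higher became 3 with DESeq2 and 3 to 5 with 1 sample left out. The lone sample left in a group was assumed to vary like the other group. The share of Kcnk3 in the K2P sum changed by -4.81 percentage points with read counts not scaled by length, and by -3.44 to -2.94 with 1 sample left out.

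With the replicate number as a block, 4 channel genes were called higher and 5 lower, adding Kcnab2, Kcnab3, Kcng4 and Kcnn2, and 6 related genes lower. Over the tested features, same-numbered samples did not deviate together (correlation 0.0165). With 2 samples per group this cannot settle whether they share an animal or culture, which the labels do not say.

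With 1 sample left out, the sign turned for some genes that did not pass the test, whose log2 fold changes then ranged as follows: Kcnd1 from -0.24 to 0.29, Kcnd2 from -0.18 to 0.11, Kcne3 from -1.14 to 0.40, Kcne4 from -0.07 to 0.09, Kcnf1 from -1.29 to 0.29, Kcnh2 from -0.07 to 0.03, Kcnj10 from -0.40 to 0.53, Kcnq1 from -0.73 to 0.66, Kcns3 from -0.17 to 0.44, Kcnk2 from -0.05 to 0.58 and S100a10 from -0.03 to 0.07. The cause was not tested.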
